A study of Rattus norvegicus with 110 samples.

Results

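The livers described here came from 14 F2 male Sprague Dawley rats, an outbred strain, all sons of F1 sires that had been given carbon tetrachloride (CCl4). They were chosen by the first digits of the animal number, which name the treatment group: 7 males of group 16 had received 50% CCl4 in olive oil (high dose) and 7 males of group 14 olive oil alone (vehicle). They are 14 of the 83 liver samples in the fit and of the 110 samples of the series. Both groups shared the same ancestry, which the labels call F0-control/F1-treated and the study calls cohort B: the F0 grandsires had received olive oil, and the F1 sires 50% CCl4 for 6 weeks and then 2 weeks of recovery before mating with untreated females. The F2 males were dosed by oral gavage at 0.5 ml/kg, 3 times per week. The liver was taken on day 39, by the study about a day after the last dose. The labels give no age. Males with the same number in the groups are brothers by the study's pedigree (litters 1, 2, 4, 5, 7, 9 and 10), so each litter gave 1 vehicle and 1 high-dose male. The 7 males of group 15, which received 8% CCl4 (low dose), and cohorts A (no treated ancestor), C (treated F0 grandsire) and D (both treated) are given only beside these 14.

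CCl4 is a classic liver toxicant. The cytochrome P450 enzymes of hepatocytes around the central vein turn it into a trichloromethyl radical that damages membrane lipids, the hepatocytes there die, macrophages clear them, and hepatic stellate cells lay down scar matrix. Surviving hepatocytes divide, and under repeated dosing the tissue carries injury, clearance, scarring and regrowth side by side.

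RNA came from pieces of liver tissue and not from sorted cells, so fewer cells of a type and less RNA per cell cannot be told apart in any result here. The 7 high-dose libraries held 33153448 to 47877240 counts and the 7 vehicle libraries 36053931 to 49212897. Values below are normalised counts, the deposited count divided by the library's effective size relative to the mean of the 83 liver libraries. The make-up of the libraries differed between the groups. The 50 genes with the most counts in vehicle males held 39.7% to 43.4% of all counts in vehicle males and 23.3% to 35.2% in high-dose males. On the first principal component, which held 51.2% of the variance, all high-dose males lay apart from all vehicle males. Among the high-dose males, that of litter 10 lay nearest to the vehicle side, at 27.6 against 61.3 to 91.9 for the other 6, and that of litter 7 stood apart on the second component, at 94.9. One vehicle male, that of litter 5, held by far the most counts for Cyp1a1 and Cyp1a2.

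High-dose CCl4 changed the level of 5012 of the 19004 genes tested (26.4%), at an adjusted p under 0.1 and more than 2-fold, by edgeR's quasi-likelihood test with Benjamini-Hochberg adjustment over all genes tested. Of these, 3466 rose (18.2%) and 1546 fell (8.14%). Rises were also the larger changes: 1838 genes rose and 362 fell more than 4-fold, and 126 rose and 28 fell more than 32-fold. The genes that rose had fewer counts, with a median mean normalised count of 39.7 against 132 for those that fell, values that also depend on gene length. The genes that fell held 41.2% to 44.5% of all counts in vehicle males and 16.1% to 29.8% in high-dose males, whereas those that rose held 1.03% to 1.21% and 3.57% to 7.70%. All 7 high-dose males lay above, or all below, the 7 vehicle males for 3856 of the genes tested (20.3%), and 2584 of these were called, 1806 higher and 778 lower. No count was found in any vehicle male for 258 of the genes that rose, and in any high-dose male for 28 of those that fell. The median log2 fold change over all genes tested was 0.02.

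Each high-dose male was also placed on genes called in cohorts A, C and D. The mean count that these genes had to reach was taken over the vehicle and high-dose males of cohort B. These males thus had a part in the choice, and a gene low in vehicle males could reach it through high-dose males. For the 1003 genes called higher in all of cohorts A, C and D with a mean normalised count over 50, the median log2 difference from the vehicle mean of cohort B ran from 1.56 in litter 10 to 2.41 in litter 7. For the 409 genes called lower there, it ran from -1.13 in litter 10 to -2.46 in litter 5. Vehicle males lay within -0.08 and 0.10 on both scales, so the groups did not overlap on either. The spread between high-dose males was itself larger than that between vehicle males. Over 2520 called genes with a mean over 50, the median SD of log2 counts was 0.51 in high-dose and 0.36 in vehicle males, and it was larger in the high-dose males for 1783 of them. Over 9842 genes that were not called, the values were 0.23 and 0.22.

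**Figure D1:**
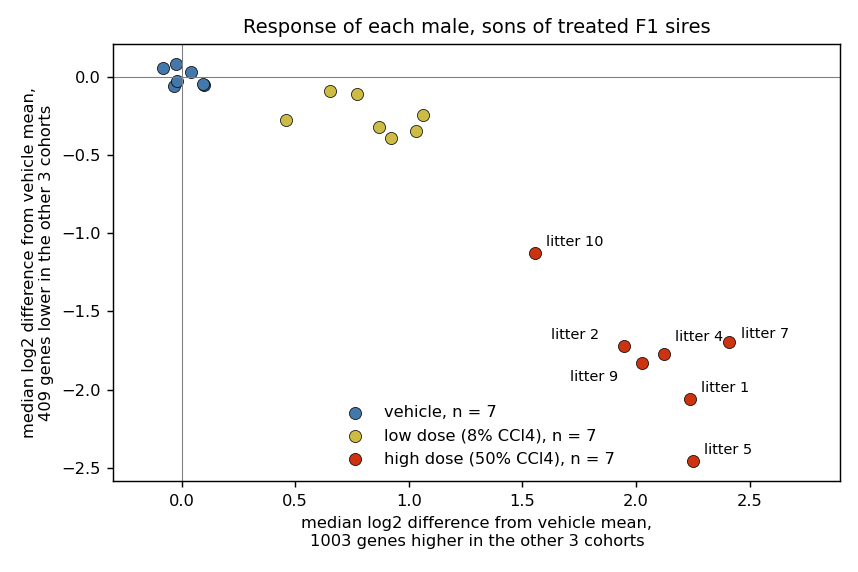
Median log2 difference of each cohort B male from the vehicle mean, over 1003 genes called higher (horizontal axis) and 409 genes called lower (vertical axis) in cohorts A, C and D. Each point is 1 male, with 7 vehicle, 7 low-dose and 7 high-dose males. The high-dose males lie between 1.56 and 2.41 on the horizontal axis, all above the low-dose males, and litter 10 lies nearest to them.

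Among the high-dose males, those of litters 5, 7 and 10 held many of the extreme values. Of 1584 genes that rose with a mean over 50, the male of litter 7 was the highest for 599 (37.8%) and that of litter 10 the lowest for 749 (47.3%). Of 936 genes that fell, the male of litter 5 was the lowest for 478 (51.1%) and that of litter 10 the highest for 543 (58.0%). Of the called genes with a mean over 50, the most scattered mostly fell. Among the high-dose males, 39 of these genes had an SD above 2 on the log2 scale, 26 of them lower. Of the 39, 19 had a vehicle mean above 1000 counts, and 2 had an SD above 2 among the vehicle males too. All 39 carry no name.

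Only 1488 of the genes tested could be named. The count tables hold Ensembl identifiers alone, and the names come from gene lists in the study's supplement, which were chosen for ancestry effects in these same animals and in kidney. The named genes are therefore not a sample of the response: 95 rose and 125 fell (14.8%, against 26.4% of all genes), with a median log2 fold change of -0.14, and 4792 of the 5012 called genes carry no name. The genes most often used to follow CCl4 injury, among them Col1a1, Acta2, Timp1, Tgfb1, Alb, Cyp2e1, Cyp7a1, Mki67 and Afp, carry no name here and were not analysed here, and most lists of liver pathways that had been planned held too few named members to describe. Of the genes without a name, ENSRNOG00000009031.5 had 218, 768 and 1327 counts as the lowest, median and highest high-dose value, against at most 2.75 in vehicle males. ENSRNOG00000050024.3 had 122, 287 and 956, against at most 6.36. Both were absent or nearly so in every vehicle male. ENSRNOG00000008050.4 went the other way, from 1608, 2488 and 6603 counts in vehicle males to 0.618, 3.14 and 7.81.

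The largest rise of a named gene was that of Lcn2 (ENSRNOG00000013973.5), which encodes lipocalin 2, a secreted protein that binds bacterial iron carriers and is made by injured hepatocytes and by neutrophils. Vehicle males held 41.4, 82.5 and 115 normalised counts (lowest, median, highest) and high-dose males 983, 3578 and 17328. The groups were far apart, and the male of litter 7 stood above the other high-dose males. The rise was 62.7-fold (log2 5.97 ± 0.85 SE, n = 7 against 7, adjusted p = 1.57e-08). Without that male it was log2 5.19, below the 5.52 of Gpx2 without the same male, so the size and the first place rest on it. Gpx2 (ENSRNOG00000055672.1), a glutathione peroxidase that is usually found in the gut, went from 2.12, 8.50 and 27.0 counts to 132, 584 and 809.7. It was thus nearly silent in every vehicle male and clearly counted in every high-dose male, with a rise of 50.0-fold (log2 5.64 ± 0.79, adjusted p = 8.89e-09). Gpat3 (ENSRNOG00000002159.6), an acyltransferase of the first step of triglyceride synthesis, went from 15.1, 24.4 and 271 counts to 538, 1397 and 2378. The vehicle male of litter 1 held the 271, above its group but still below all high-dose males, and the rise was 20.5-fold (log2 4.36 ± 0.71, adjusted p = 3.76e-07), or log2 5.43 without that male.

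The promoters of these 3 genes are shown because their genes rose the most, from RefSeq (assembly GRCr8, 250 bases before to 50 after the start of the gene, 5′ to 3′ on the strand of the gene). Each was searched on both strands for TGACNNNGC, the core of the antioxidant response element, TGANTCA, which AP-1 factors bind, and TTGCNNAA, which C/EBP factors bind. TGANTCA reads the same on both strands and can lie inside TGACNNNGC. Capitals mark the match, which for Gpx2 lies on the opposite strand.
Gpx2, chr6:101229984-101230283, minus strand: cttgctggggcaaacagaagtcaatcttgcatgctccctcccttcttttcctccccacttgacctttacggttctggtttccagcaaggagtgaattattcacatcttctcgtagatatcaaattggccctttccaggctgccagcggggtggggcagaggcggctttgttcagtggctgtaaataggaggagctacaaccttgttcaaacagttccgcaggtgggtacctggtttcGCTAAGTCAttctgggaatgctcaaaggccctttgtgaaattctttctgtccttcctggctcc
Lcn2, chr3:36081731-36082030, minus strand: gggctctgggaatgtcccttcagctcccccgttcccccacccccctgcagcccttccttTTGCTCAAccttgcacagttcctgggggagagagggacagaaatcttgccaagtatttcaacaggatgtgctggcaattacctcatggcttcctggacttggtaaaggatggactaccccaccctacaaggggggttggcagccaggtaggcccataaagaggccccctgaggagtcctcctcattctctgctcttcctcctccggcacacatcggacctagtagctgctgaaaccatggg
Gpat3, chr14:9070816-9071115, minus strand: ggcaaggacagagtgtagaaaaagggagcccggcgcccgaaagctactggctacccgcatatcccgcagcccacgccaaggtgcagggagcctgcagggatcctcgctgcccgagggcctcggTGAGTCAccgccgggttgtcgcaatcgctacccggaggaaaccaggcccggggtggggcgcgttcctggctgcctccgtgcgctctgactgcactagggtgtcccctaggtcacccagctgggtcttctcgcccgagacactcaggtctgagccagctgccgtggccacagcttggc
The match in Gpx2 lies at -13 to -5 from the start, that in Lcn2 at -191 to -184 and that in Gpat3 at -127 to -121. A match is a description of letters and not a site. Of all 33469 promoters of this length in the table, TGACNNNGC is in 12.1%, TGANTCA in 7.33% and TTGCNNAA in 10.6%. Of the 11 promoters found for 10 of the 12 genes with the largest rises, each motif is in 1 (9.09%), and of the 18 found for 10 of the 12 with the largest falls, TTGCNNAA is in 2, both of Togaram2, and the others are in 0.

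The other 9 largest rises ran from log2 2.60 to 3.18 and cover drug metabolism, chemokine signalling, matrix sensing and calcium binding. Cyp2c24, a cytochrome P450, had 19.99, 97.6 and 394 counts in vehicle males and 639, 1108 and 1921 in high-dose males (9.07-fold, log2 3.18, adjusted p = 4.72e-07), or log2 3.78 without the vehicle male of litter 9, which held the 394. Ccl2, the chemokine that draws monocytes into tissue, had 4.94, 12.4 and 37.3 counts and then 41.3, 76.7 and 361 (8.44-fold, adjusted p = 0.000162). Its lowest high-dose male lay only just above its highest vehicle male. Ddr1, a receptor kinase that collagen activates, had 62.6, 78.5 and 92.2 counts and then 223, 563 and 1238. S100a6, a calcium-binding protein, had 61.5, 94.7 and 181 counts and then 439, 712 and 1051. Unc5b, a netrin receptor, had 187, 297 and 519 counts and then 1064, 2466 and 3329, with each high-dose male far above each vehicle male. Tril, a membrane protein that takes part in Toll-like receptor signalling, Gstm3l, a glutathione S-transferase of the mu class, Map3k6, a kinase of stress signalling, and Cys1, a protein of the primary cilium, rose by log2 2.83, 2.75, 2.73 and 2.60. Without the high-dose male of litter 7 the value of Cys1 was 1.71. Gstm3l and Cyp2c24 belong to families of similar sequences, so their counts may share reads with relatives.

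**Figure D2:**
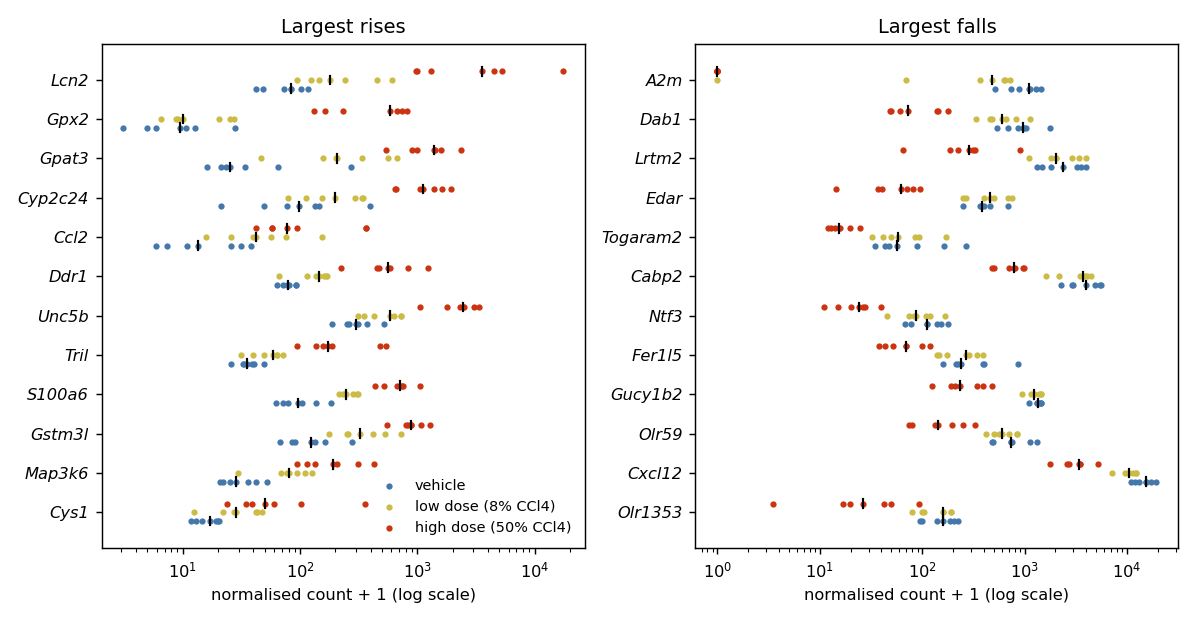
Normalised count plus 1 (log scale) of each cohort B male for the 12 named genes with the largest rises and the 12 with the largest falls. Points are males, 7 in each of vehicle, low-dose and high-dose groups, and ticks are medians. Vehicle and high-dose males do not overlap for any of the 24, which the choice of these genes required. A2m was at 0 in all 7 high-dose males and in 1 low-dose male.

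The largest falls of named genes began with A2m (ENSRNOG00000045772.2), alpha-2-macroglobulin, a protease inhibitor that the rat liver makes in the acute phase. Its identifier also carries a second symbol, so related sequences may share its reads. Vehicle males held 511, 1105 and 1443 counts, and all 7 high-dose males held 0. Allowing 3 counts per library, the level was at least 437-fold lower (adjusted p = 1.05e-06). In the low-dose males it ran from 0 to 718, with 0 in the male of litter 5 and 68.1 in that of litter 9, and 369 or more in the other 5. Dab1, an adaptor of reelin signalling, went from 535, 957 and 1757 counts to 47.1, 71.1 and 176 (10.1-fold lower, adjusted p = 3.44e-09). Cxcl12, a chemokine of stromal and endothelial cells that keeps CXCR4-bearing cells in place, went from 11008, 15295 and 19404 counts to 1771, 3419.9 and 5187 (4.56-fold lower, adjusted p = 9.41e-12).

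The other 9 falls lay between log2 -2.19 and -2.95. Lrtm2, a membrane protein with leucine-rich repeats, went from 1316, 2378 and 3968 counts to 63.6, 284 and 905, where the male of litter 10 held the 905. Cabp2, a calcium-binding protein, went from 2241, 3979.7 and 5524 to 479, 794 and 979. Gucy1b2, a subunit of the guanylate cyclase that nitric oxide activates, went from 1095, 1335 and 1445 to 125, 231 and 481. Edar, the ectodysplasin receptor, fell by 2.89 on the log2 scale, Togaram2 by 2.69, Ntf3, the neurotrophin 3 gene, by 2.40 and Fer1l5, a ferlin, by 2.37. Olr59 fell by 2.24 and Olr1353 by 2.19. Both are annotated as olfactory receptors, a family of near-copies whose reads are hard to assign.

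Counts of list members called are read here against all genes tested, of which 18.2% rose and 8.14% fell, and the share of a list stands beside its count. All list members come from the 1488 named genes, of which 95 rose and 125 fell, with a median log2 fold change of -0.14. Rises were thus rarer among named genes than among all genes, and a share of rises near 18.2% lies above that of the named genes. Hepatocyte enzymes moved in both directions. Of 32 measured enzymes of drug, amino acid, sugar and lipid metabolism, 8 rose (25.0%) and 7 fell (21.9%), with a median log2 fold change of -0.31 against 0.02 over all genes. Grhpr, which reduces glyoxylate, went from 18865, 20786 and 26959 counts to 5827, 7847 and 12823 (log2 -1.33, adjusted p = 1.31e-08). Xylb, xylulose kinase, went from 8787, 12826 and 13502 to 3236, 4974 and 6370.5 (log2 -1.32, adjusted p = 1.25e-09). Neither overlapped between the groups. Sdr42e1 (log2 -1.25), Amdhd1 (log2 -1.20), which breaks down histidine, Lipo1 (log2 -2.11), a lipase, and Hsd17b2 (log2 -1.01, adjusted p = 0.0639), which inactivates sex steroids, were the others beside Cyp1a2. Amdhd1 had -0.90 without the vehicle male of litter 1 and was not called. Hsd17b2 lay at the 2-fold limit and was no longer called under 15 of 25 alternatives.

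The 8 enzymes that rose include Cyp2c24 and Gstm3l, above, and enzymes of growth and lipid synthesis. Psat1, of serine synthesis, went from 51.7, 81.6 and 136 counts to 307, 529 and 633 (5.80-fold, adjusted p = 1.93e-10). Aldoa, the aldolase of muscle and fetal liver, went from 1785, 2169 and 2268 to 4444, 5161 and 6858 (2.52-fold, adjusted p = 1.02e-11). Scd2, a fatty acid desaturase, went from 362, 519 and 685 to 1169, 1849 and 2091 (3.34-fold, adjusted p = 2.24e-12). None of these 3 overlapped between the groups. Pla1a, a phospholipase, rose by 2.22 on the log2 scale, Akr7a3, an aldehyde reductase, by 1.59 with overlap, and Fmo2 by 1.22. Fmo2 rose in only 5 of 7 litters, and with the litter as a block its adjusted p was 0.182. Without the high-dose male of litter 7 its value was 0.61, and it was not called. Tat, the tyrosine aminotransferase that glucocorticoids induce, had 22880.1 counts as the vehicle median and 20084 as the high-dose median and did not pass (log2 -0.41, adjusted p = 0.380).

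For Cyp1a1 and Cyp1a2, the enzymes that ligands of the aryl hydrocarbon receptor induce, 1 vehicle male decided the call of the first and the size of the second. The gene Cyp1a1 had 4.90 to 27.6 counts in 6 vehicle males and 3003 in that of litter 5, and 23.9, 345 and 1318 counts in high-dose males. With all 14 males its log2 fold change was -0.06 (adjusted p = 0.960). Without the vehicle male of litter 5 it was 5.05 (adjusted p = 1.91e-06), and with the litter as a block 3.96 (adjusted p = 0.0366). Cyp1a2 had 13274 to 29468 counts in the same 6 vehicle males, 173587 in that of litter 5, and 3817, 7089.7 and 17133 in high-dose males. It fell by 2.21 on the log2 scale (adjusted p = 2.43e-06), by 1.37 with the litter as a block (adjusted p = 0.0659), by 1.04 without the vehicle male of litter 5, where it was still called, and by 0.89 without both males of litter 5, where it was no longer called. Ahr, which encodes the receptor, had a vehicle median of 1832 and a high-dose median of 1721 and did not pass (log2 -0.32, adjusted p = 0.285).

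Of 26 measured genes of innate and adaptive immunity, 7 rose (26.9%) and 2 fell (7.69%), with a median log2 fold change of 0.47. Over all genes, too, rises were more frequent than falls, but among the 1488 named genes they were not, with 95 higher and 125 lower. Among the risers were 3 lysosomal proteases. Lgmn, legumain, went from 2088, 2259 and 2543 counts to 5797, 7327 and 9067 (3.08-fold, adjusted p = 2.38e-15), and the lysosomal cathepsins Ctsd and Ctsz rose by log2 1.08 and 1.19. Cd4, carried in rats by helper T cells and by macrophages, went from 684, 812 and 1081 counts to 2223, 2369 and 3107 (3.03-fold, adjusted p = 1.34e-12). Pirb, an inhibitory receptor of myeloid cells, rose by log2 1.80 and Selplg, the P-selectin ligand of leukocytes, by 1.72. None of these 6 overlapped between the groups, nor did Acap1 (log2 1.05). The 2 that fell were Cfb, complement factor B, which hepatocytes secrete (log2 -1.18), and Cd274, the checkpoint ligand PD-L1 (log2 -1.49).

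The markers of macrophages and Kupffer cells themselves moved less than 2-fold. Only 6 of the 28 markers listed could be measured. Ctss (log2 0.89), Adgre1 (log2 0.72) and C1qb (log2 0.69) were past the adjusted p of 0.1 but under 2-fold. Ctss, cathepsin S, did not overlap, with 1326, 1465 and 1940.00 counts in vehicle and 2546, 2796 and 3443 in high-dose males. Cd14, Cd163 and Cd5l were not past it. Summed over the 6, the level was 10700 to 14080 in vehicle and 9453 to 24230 in high-dose males, so the groups overlapped. Cd5l, a large part of this sum, ranged from 765 to 9604 in high-dose males. Of 24 markers of T, B and NK cells, Cd4 and Cd247 could be measured, and Cd247, a chain of the T cell receptor, had a vehicle median of 52.3 and a high-dose median of 67.3 (log2 0.30, adjusted p = 0.0913). The 2 measured markers of endothelial cells, Stab1 and Kdr, summed to 2962 to 5911 in vehicle and 1634 to 3220 in high-dose males. Kdr alone was called, and Stab1 had a vehicle median of 970 and a high-dose median of 895 (log2 -0.04, adjusted p = 0.904). None of these markers was at 0 in every library. The part of cell numbers in the immune genes was not tested.

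Cytokines and their receptors went both ways, with 3 of 15 higher (20%), 3 lower (20%) and a median of 0.36. The share that rose is near that of all genes and above that of the named genes. Beside Ccl2, Ebi3, a subunit of interleukin 27, went from 14.2, 27.6 and 55.3 counts to 89.9, 122 and 263 (4.73-fold, adjusted p = 2e-08), and Tnfsf13b, the B cell factor BAFF, rose by log2 1.08, a call lost under 4 of 25 alternatives, among them without the vehicle male of litter 4 or 9 or the high-dose male of litter 5. Beside Cxcl12, Il33, an alarm signal held in nuclei, went from 1531, 2741 and 4678 counts to 818, 1140.2 and 1684 (2.32-fold lower, adjusted p = 2.87e-05). Il6r, the receptor through which interleukin 6 drives the acute phase, went from 3773, 5177 and 12175 to 1487, 2080.1 and 4328 (2.71-fold lower, adjusted p = 1.72e-05). Il33 and Il6r overlapped between the groups but were lower in each high-dose male than in its brother. Il17ra, an interleukin 17 receptor, was lower by 0.35 on the log2 scale (adjusted p = 0.000421), under the 2-fold limit, with no overlap.

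Of 20 genes of matrix, matrix processing and adhesion, 4 rose (20%) and 2 fell (10%), shares near those of all genes (median 0.12). The share that rose lies above that of the 1488 named genes, of which 95 rose. Plau, urokinase, which activates plasmin, went from 136, 198 and 254 counts to 462, 590.4 and 1113 (3.57-fold, adjusted p = 2.06e-10). Ogn, osteoglycin, a small matrix proteoglycan, went from 150.04, 259 and 354 to 388, 676 and 2510.2, the highest again in litter 7 (3.62-fold, adjusted p = 5.99e-08). Adam19, a metalloprotease, rose by log2 1.68. Omd, osteomodulin, a proteoglycan related to Ogn, fell by 1.21 on the log2 scale, and by 0.97 without the vehicle male of litter 9, where it was not called. Fras1, of the basement membrane, fell by 2.23, with 4.60 to 96.7 counts in high-dose and 18.6 to 182 in vehicle males, which overlap. Without the high-dose male of litter 7, which held the 96.7, it fell by 3.34. The identifiers of Ogn and Omd carry more than 1 symbol, so their reads may be shared. Among 23 genes of the actin and microtubule cytoskeleton, 4 rose (17.4%) and 0 fell (median 0.38): S100a6, Marcks (log2 1.25), a link between actin and the membrane, Capn2 (log2 1.09), a calpain, and Septin8 (log2 1.52). Of the 25 markers listed for stellate cells and myofibroblasts, Lhx2 alone could be measured, at 92.0 to 152 counts in vehicle and 66.8 to 143 in high-dose males, and it was not called.

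A further list held 23 genes of growth factors, hormones, their receptors and proteins that bind them or pass on their signal. Of these, 10 fell (43.5%, against 8.14% of all genes), 3 rose (13%) and 10 were not called, with a median of -0.96. Vegfa, the main growth factor of endothelium, went from 4572, 6787 and 7785 counts to 2041, 2646 and 3166 (2.42-fold lower, adjusted p = 1.03e-11), and Kdr, its receptor, from 2369.8, 3954 and 4695 to 1042, 1440.1 and 2313 (2.34-fold lower, adjusted p = 6.35e-07). Neither overlapped. Igfals, the hepatocyte protein that holds insulin-like growth factors in the blood, went from 11447, 13828 and 15422 to 2330.02, 3327 and 5804 (3.68-fold lower, adjusted p = 1.92e-07). Avpr1a, the vasopressin receptor of hepatocytes, went from 2298, 4369.7 and 7185 to 875, 1106 and 2036 (3.56-fold lower, adjusted p = 5.23e-07). Irs1, which passes on the insulin signal, fell by 1.24 on the log2 scale, and the ephrins Efna5 and Efnb2 by 1.40 and 1.44. Fgf11 (log2 -1.72), Ntf3 and Adora2b, an adenosine receptor (log2 -2.34, with overlap), were the others that fell. The 3 that rose were the netrin receptors Unc5b and Unc5c (log2 1.74) and Gdf15, a stress hormone, which went from 8.48, 30.3 and 96.4 counts to 31.4, 87.4 and 159 (log2 1.23, adjusted p = 0.0280).

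Of 29 genes of the Notch, Wnt, Hedgehog, BMP and TGF-beta pathways, 4 rose (13.8%) and 3 fell (10.3%), with a median of -0.38. By role, the called ligands were Tgfb2, which rose by log2 1.26 with overlap (0.997 and not called without the high-dose male of litter 5), and Inhba, the activin A subunit, which went from 477, 818 and 1247 counts to 109, 177 and 432 (4.02-fold lower, adjusted p = 1.64e-06). Among receptors, Fzd4, for Wnt ligands, went from 2441, 3721 and 5981 to 729.9, 1054 and 1712 (3.33-fold lower, adjusted p = 6.66e-10). Frzb, a secreted Wnt antagonist, rose by log2 1.60 and Disp1, which releases Hedgehog ligands, by 1.92. Id1, a direct target of BMP signals, went from 36.4, 40.2 and 98.3 counts to 182, 207 and 379 (4.93-fold, adjusted p = 9.68e-08), without overlap. Hes6, of the Notch pathway, fell by 1.30 on the log2 scale. Ski, a repressor of TGF-beta signals, did not pass (log2 -0.28, adjusted p = 0.128).

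Of 24 solute carriers, 5 fell (20.8%) and 0 rose (median -0.23). Slc19a2, which takes up thiamine, went from 4096, 4776 and 5528 counts to 937, 1182 and 1653 (3.67-fold lower, adjusted p = 2.94e-12). Slc1a2, the glutamate transporter of the hepatocytes next to the central vein, went from 99.9, 268 and 434 to 4.85, 30.9 and 107 (7.54-fold lower, adjusted p = 6.9e-08). Slc25a42 (log2 -1.05), which carries coenzyme A into mitochondria, Slc25a48 (log2 -1.68) and Slc45a3 (log2 -1.27) were the others. Without the vehicle male of litter 9, Slc45a3 had -0.78 and was not called. Among the 5 measured genes of pericentral hepatocytes, the zone where CCl4 is activated, 2 fell (40%), Slc1a2 and Cyp1a2, and 1 rose (20%). Rhbg, an ammonium transporter, rose from 100.2, 211 and 356 counts to 204, 508 and 981 (log2 1.47, adjusted p = 0.000261). Glul, glutamine synthetase, the classic gene of this zone, had 8986, 13258 and 20126 counts in vehicle males and 10157, 11640.00 and 14149.8 in high-dose males and did not pass (log2 -0.22, adjusted p = 0.341).

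Of 33 genes of cell division, DNA repair and cell death, 3 rose and 3 fell (9.09% each), with a median of 0.05. Ccne1, cyclin E1, which starts DNA replication, went from 15.1, 26.4 and 47.6 counts to 72.8, 155 and 305 (5.53-fold, adjusted p = 6.52e-08). Wee1, a kinase that holds back mitosis, went from 118, 131 and 233 to 317, 439.96 and 911 (3.07-fold, adjusted p = 1.94e-07). Sgo2, which protects chromosome cohesion, rose by log2 1.51, but the average transcript length of this gene differed between libraries, and with it as an offset the value was 0.16 (adjusted p = 0.579). Ddb2, of nucleotide excision repair, fell by 1.16 on the log2 scale, Tert, the catalytic subunit of telomerase, by 1.05 and Hells, a chromatin remodeller, by 1.05 with overlap. Tert and Hells lay near the 2-fold limit and were each no longer called under 4 of 25 alternatives, Tert without the vehicle male of litter 1 or the high-dose male of litter 4 or 5, and Hells without the vehicle male of litter 2 or the high-dose male of litter 2 or 4, besides without both males of litter 5. Cdkn1a, the p21 inhibitor, had 403, 1378 and 8613 counts in vehicle and 926, 1950.1 and 3032 in high-dose males and did not pass (log2 -0.47, adjusted p = 0.381). The vehicle male of litter 9 held the 8613, and without it the value was 0.24. Fos, an immediate early gene, rose from 8.50, 14.7 and 72.1 to 37.6, 63.8 and 915 (log2 3.13, adjusted p = 3.77e-05), with litter 7 again the highest. Without that male the value was 1.97, and without the vehicle male of litter 9, which held the 72.1, it was 3.76.

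Of 18 measured genes of epithelial junctions and ducts, 5 rose (27.8%) and 3 fell (16.7%), with a median of -0.07. St14, the membrane protease matriptase, went from 52.2, 91.2 and 97.8 counts to 208, 337 and 1072 (4.98-fold, adjusted p = 1.4e-11). Ggt1, a gamma-glutamyl transferase of bile ducts and fetal hepatocytes, went from 31.3, 42.5 and 61.8 to 51.4, 151 and 831 (6.30-fold, adjusted p = 2.44e-05), with overlap. Its log2 fold change of 2.66 ran from 2.05 to 2.97 under the 25 alternatives. Cys1 rose as above, and Evpl and Krt80, of stratified epithelia, rose from near 0. Onecut2, a transcription factor of bile duct development, fell by 1.04 on the log2 scale, Cdh17 by 1.39 and Wfdc2 by 1.56. Onecut2 was not called under 3 of 25 alternatives, among them without the vehicle male of litter 2 (-0.93) and without the high-dose male of litter 5 (-0.96). Cdh17 went from 1403, 4773 and 10784 counts to 529.8, 1260.4 and 4766 and was lower in each of the 7 litters (adjusted p = 0.0417), and without the vehicle male of litter 1 its value was -1.15 and it was not called. The 4 measured markers of cholangiocytes, of 21 listed, summed to 2364 to 12020 in vehicle and 1635 to 5607 in high-dose males.

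Some lists held few called genes. Of 52 measured genes of ribosome biogenesis, 1 rose (1.92%) and 0 fell (median 0.08): Polr3g, a subunit of RNA polymerase III, which went from 204, 311 and 413 counts to 529.8, 761 and 874. Of 10 clock genes and of 6 genes that glucocorticoids induce, 0 were called (medians -0.30 and -0.39). Of 32 chromatin-modifying enzymes, 2 fell (6.25%, near the share of all genes) and 0 rose (median -0.26), Hells and Dnmt3b, a DNA methyltransferase (log2 -1.09, adjusted p = 1.27e-07). Among the clock genes, Nr1d2 had a log2 fold change of -0.75 (adjusted p = 0.0171), under the 2-fold limit.

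**Figure D3:**
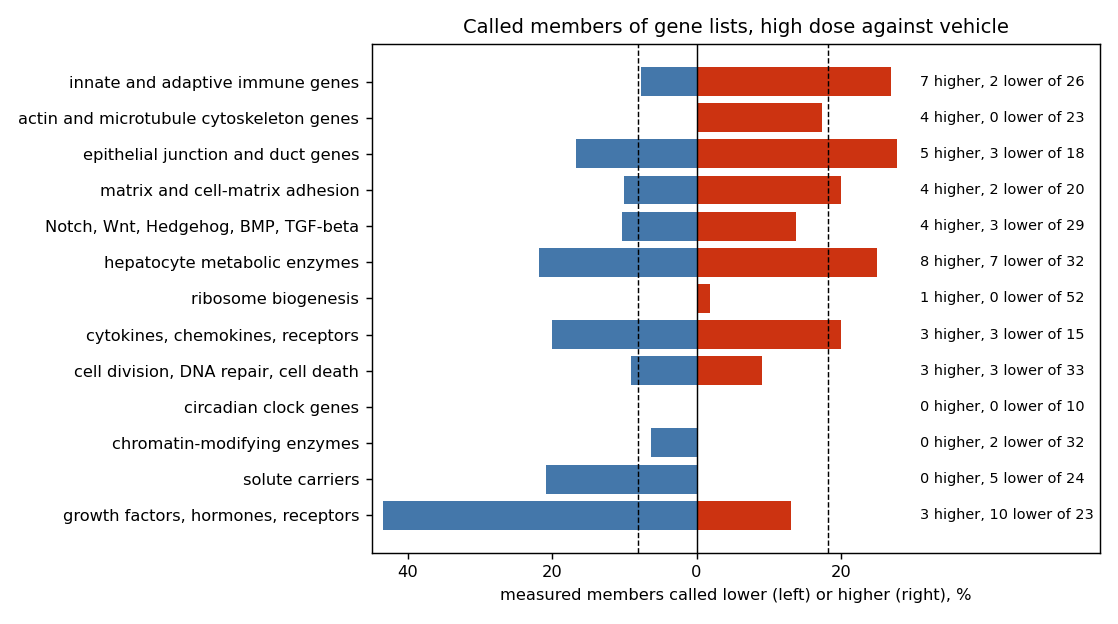
Share of the measured members of each gene list called lower (left of 0) or higher (right of 0) at the high dose, in percent, for the 13 lists with at least 10 measured members. Dashed lines mark the share over all genes tested, 8.14% lower and 18.2% higher. The members come from the 1488 named genes, of which 125 were lower and 95 higher. Growth factors, hormones and receptors have 10 of 23 members lower, and ribosome biogenesis 1 of 52 called.

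Because each litter gave 1 vehicle and 1 high-dose male, the change could be followed between brothers. Of the 1584 genes that rose with a mean over 50, 1436 (90.7%) were higher in the treated brother in all 7 litters, and of the 936 that fell, 836 (89.3%) were lower in all 7. Each litter was necropsied on 1 of 4 dates. Within dates, 1523 (96.1%) of the risers and 899 (96.0%) of the fallers kept their direction on all 4. These genes were chosen as different between the same males, which sets most of their directions. Of 9842 genes with a mean over 50 that were not called, 31.5% had 1 direction in all 7 litters and 51.9% on all 4 dates. Of the 90 named genes that were called, 87 kept their direction on all dates. The exceptions were Fmo2, at -0.41 on the fourth date, Gdf15, at -1.56 on the third, and Hsd17b2, at 0.42 on the fourth. The third date held 1 male of each group.

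The gene Zbtb16, a transcription factor that glucocorticoids induce strongly, varied by litter. Its vehicle counts were 87.4 and 125 in litters 1 and 2, both necropsied on the first date, and 1532 and 879 in litters 4 and 5, both of the second. Their treated brothers held 56.6, 119, 1433 and 535 counts. In litters 7, 9 and 10 the vehicle males held 306, 3246 and 1617 counts and their brothers 211, 598 and 412. The count varied more between litters than between brothers in most litters, was lower in the treated male in all 7 litters, and missed the threshold in the comparison of group means (log2 -1.21, adjusted p = 0.134). It was past the threshold under 5 of 25 alternatives: with necropsy date as a term (adjusted p = 0.0503), without the vehicle male of litter 1, 2 or 7, and without the high-dose male of litter 4 (log2 -1.78, adjusted p = 0.0348). With the litter as a block it was -0.90 (adjusted p = 0.0297), under the 2-fold limit. Each litter was necropsied on 1 date, and 3 of the 4 dates held 2 litters.

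**Figure D4:**
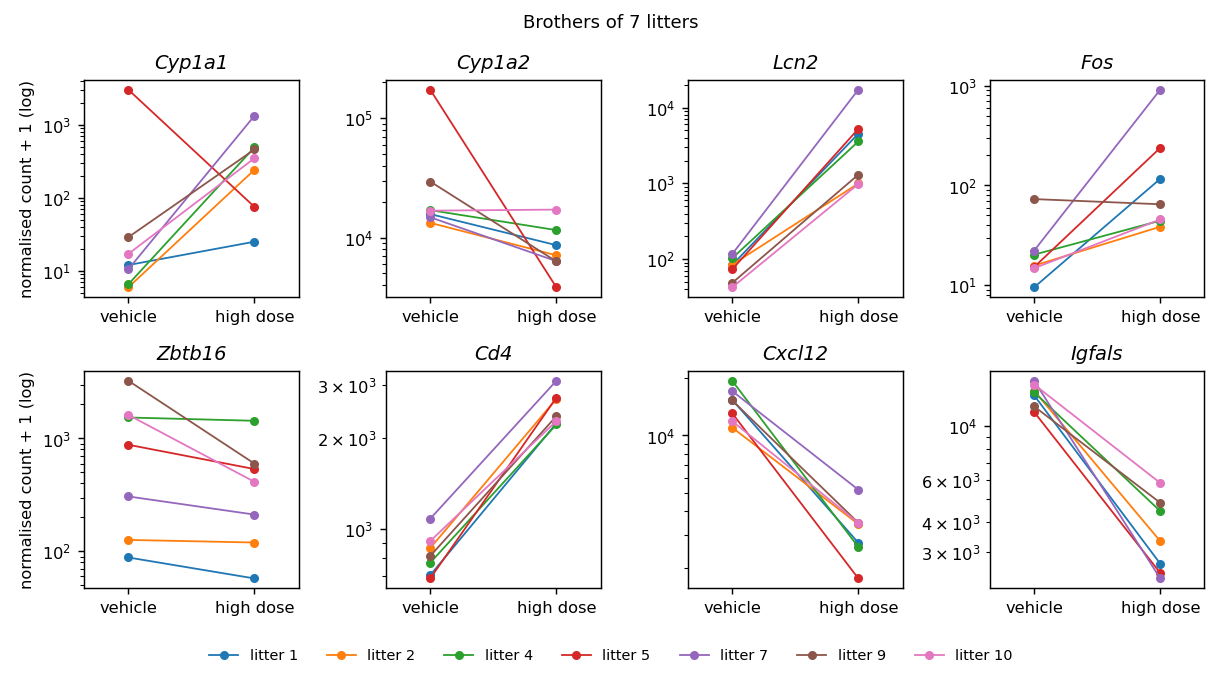
Normalised count plus 1 (log scale) of 8 genes in the vehicle and the high-dose male of each of 7 litters, joined by a line for each pair of brothers. Cyp1a1 and Cyp1a2 show the vehicle male of litter 5 at 3003 and 173587 counts, Zbtb16 is lower in the treated brother in all 7 litters, by most in litter 9, from 3246 to 598, and Cd4, Cxcl12 and Igfals move the same way in all 7 litters.

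The low-dose males lay between the other groups. Against the high dose, 3134 of 19004 genes were called (16.5%), 2049 higher and 1085 lower at the high dose, and low dose against vehicle called 694 (3.65%), 664 higher and 30 lower. The comparisons share males, so their values are given only side by side. For the 3466 genes that rose, the median log2 fold change over vehicle was 2.07 for the high-dose and 0.78 for the low-dose males, and for the 1546 that fell it was -1.45 and -0.29. The low-dose mean lay between the other means for 3059 of the risers (88.3%) and 1348 of the fallers (87.2%), in genes whose choice sets the outer groups apart. Some named genes were already changed at the low dose. Gstm3l was higher by log2 1.52 (adjusted p = 0.00110) and by 2.75 at the high dose, Selplg by 1.17 (adjusted p = 6.97e-05) and 1.72, Pirb by 1.13 (adjusted p = 0.000299) and 1.80, and Gpat3 by 2.28 (adjusted p = 0.0258) and 4.36. Others had low-dose values near those of vehicle. Gpx2 had 5.56, 9.03 and 26.1 counts at the low dose (log2 0.60, adjusted p = 0.846) and Edar 251, 461 and 749.8 (log2 0.19, adjusted p = 0.928), and both were past the threshold between high and low dose, at log2 5.05 (adjusted p = 2.36e-07) and -3.08 (adjusted p = 6.45e-07). Glul was lower at the low dose than in vehicle males (log2 -0.89, adjusted p = 0.000667, under the 2-fold limit) and 0.67 higher at the high than at the low dose (adjusted p = 0.00332).

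The same comparison was made in the other 3 cohorts, which share no males with cohort B. In ancestral treatment, cohort A differs from B by the F1 sire alone, so B against A addresses whether sons of treated F1 sires respond differently. Cohort D, whose F1 sires were treated too, differs in the treatment of the F0 grandsire alone, and cohort C in both. The cohorts also have different F1 sires of an outbred strain, so family and ancestral treatment cannot be told apart. High dose against vehicle called 4125 genes in cohort A, 4116 in C and 4303 in D. Of the 5012 genes called in cohort B, 3295 (65.7%), 3084 (61.5%) and 3363 (67.1%) were called in the same direction there, which is 79.9%, 74.9% and 78.2% of the genes called in those cohorts. Over 12362 genes with a mean over 50, the log2 fold changes of cohort B correlated with those of A, C and D at r = 0.94, 0.94 and 0.95, across genes, which are not independent replicates. All 4 cohorts called 2328 genes (46.4% of those of cohort B), and 829 (16.5%) were called in the same direction in no other cohort, with a median size of 1.43 on the log2 scale against 2.30 for the 2328.

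The test of the difference itself called few genes. The response of cohort B differed from that of cohort A for 0 genes, from C for 2 and from D for 0, at an adjusted p under 0.1 by edgeR, and for 1184, 1451 and 986 genes (6.23%, 7.64% and 5.19% of those tested) at an unadjusted p under 0.05. DESeq2 called 13, 17 and 6. A call in cohort B that is missing elsewhere does not by itself show a difference between cohorts, nor that there is none. Both of the 2 genes carry no name, and both rest on high values in some high-dose males of cohort C. ENSRNOG00000058083.1 had 77.8, 96.1 and 201 counts in the high-dose males of cohort B, with log2 -1.11 against vehicle males (adjusted p = 0.0748, a call lost under 8 of 25 alternatives), and 109, 496 and 11416 in those of cohort C (difference log2 -4.27, adjusted p = 0.0105). The other, singled out after its values were seen, had at most 19.2 counts in the cohort B males of these groups and up to 849 in those of cohort C (difference log2 -5.49, adjusted p = 0.0704).

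Among named genes the smallest p for cohort B against A were those of Cyp1a1 (difference log2 -6.24, adjusted p = 0.166), which rests on the vehicle male of litter 5, and Trim39 (-0.69, adjusted p = 0.166), lower in cohort B by 0.72 and in A by 0.03 on the log2 scale. Ddr1 had a log2 fold change of 2.98 in cohort B and 0.66 in D (difference 2.32, adjusted p = 0.880). The vehicle males of D held 54.3, 59.9 and 2015 counts, the highest above all high-dose males of D, which held 205, 434 and 1234. For genes chosen in the other cohorts, the median rise of cohort B was the larger in all 3 comparisons and the median fall in 2. Over 2132 genes called higher in C and D the median was 2.29 in cohort B and 2.00 in A, and over 730 called lower it was -1.56 and -1.60. Over 2205 called higher in A and D it was 2.27 in cohort B and 1.91 in C, and over 642 called lower -1.68 and -1.47. Over 2116 called higher in A and C it was 2.30 in cohort B and 2.13 in D, and over 729 called lower -1.60 and -1.31. No test over animals was made of these medians. A2m was at 0 in all high-dose males of cohort A too, and reached 794 counts in those of C and 169 in those of D.

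**Figure D5:**
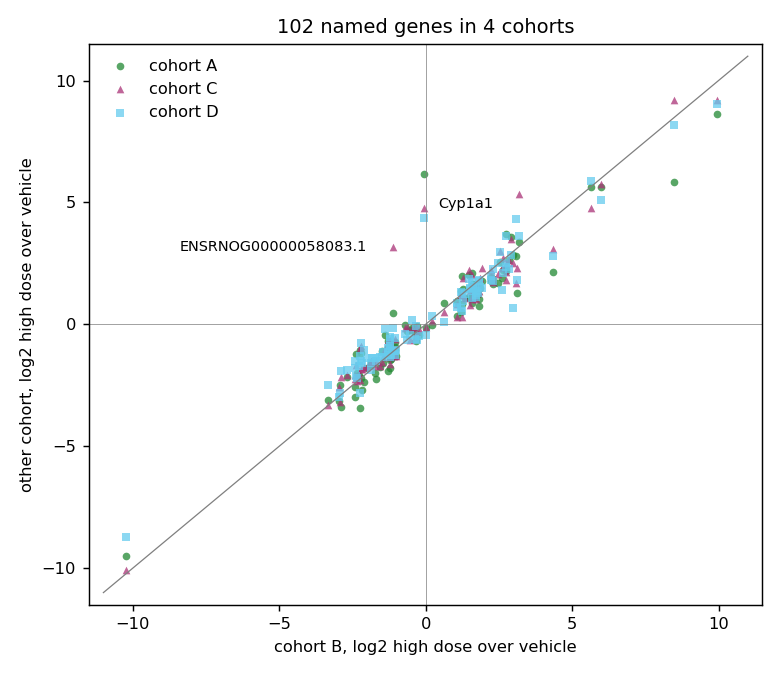
Log2 fold change of high dose over vehicle in cohort B (horizontal axis) and in cohorts A, C and D (vertical axis) for 102 named genes. A2m, with no count in any high-dose male of cohort B, is left out. The line marks equal values. Most points lie near it, and Cyp1a1, at -0.06 in cohort B and 4.35 to 6.18 in the others, and ENSRNOG00000058083.1, at -1.11 and 3.16 in cohort C, lie off it.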

How the data were processed

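Liver RNA of 83 F2 males was sequenced by the authors from stranded poly(A) libraries. The authors estimated transcript abundance with Salmon 0.14.0, summed it per gene with tximport under R 3.5.0, and deposited whole-number counts for 31998 Ensembl identifiers, not normalised, and average transcript lengths per gene and library (a signal in bases), used here as offsets in 1 alternative. Estimated counts move with reads shared between similar genes.

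The 19004 genes whose counts summed to more than 10 in 1 or more of 12 groups were tested with edgeR 4.0.16 (R 4.3.3): TMM, quasi-likelihood fit of the 12 group means, contrasts, two-sided, Benjamini-Hochberg adjustment. Calls needed an adjusted p below 0.1 and a change of more than 1 on the log2 scale. DESeq2 1.42.0 was an alternative. The code was tested on simulated data. No test was run on a gene list.

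The members and lists were chosen with earlier results of these data known, and 12 lists, those with many measured members other than clock and ribosome genes, were added later by gene name. Named genes are, among genes with a symbol, the 12 largest rises and falls without overlap and with a mean over 50, up to 4 risers and 4 fallers of each list, genes the study names, and those with the smallest interaction p or the largest spread. Other list members named are those called and a few that were not. A few genes are not reported here and were left out of the lists and the named genes.

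Same-numbered males are brothers by the study's pedigree. Their deviations from the group means correlated at -0.03 to 0.16 over 12362 genes, above 0.1 in 2 of 7 litters, and 3 of 7 males correlated best with their own brother.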

Additional observations from a re-analysis of the deposited data

Results flagged for a closer look

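In 206 groups of 7 males (103 named genes, vehicle and high dose), 32 had 1 male set apart from the other 6 by more than Dixon's 95% limit, 17 in vehicle and 15 in high-dose males, 30 of them at the high end. Chance flags about 1 in 20 groups, and counts are not symmetric, so high values are flagged more readily than low ones. Values are normalised counts.

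Among the high-dose males, that of litter 7 was set apart for 7 genes: Cyp1a1 at 1318, Cys1 at 358, Fos at 915, Fras1 at 96.7, Lcn2 at 17328, Ogn at 2510.2 and St14 at 1072. Of these, 6 were called, and Fras1 alone fell. The male of litter 10 was set apart for Cd274 at 327, Hes6 at 814 and Lrtm2 at 905, 3 genes that fell and of which it held the highest count among the high-dose males. The male of litter 4 was set apart for Il6r at 4328, Lpin1 at 8101 and Zbtb16 at 1433, that of litter 5 for Wee1 at 911 and that of litter 9 for Akr7a3 at 20031.

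Among the vehicle males, that of litter 9 was set apart for 5 genes: Cdkn1a at 8613, Cyp2c24 at 394, Fos at 72.1, Lpin1 at 10352 and Slc45a3 at 1669. The male of litter 5 was set apart for Cyp1a1 at 3003, Cyp1a2 at 173587, Gpx2 at 27.0 and Wfdc2 at 2671. The male of litter 1 was set apart for Gpat3 at 271 and Id1 at 98.3, that of litter 2 for Adora2b at 249.8 and Fer1l5 at 860.02, and that of litter 4 for Dab1 at 1757 and, at the low end, Aldoa at 1785. The male of litter 7 held the lowest Gucy1b2, at 1095, and that of litter 10 the highest ENSRNOG00000050024.3, at 6.36.

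The response differed between cohorts B and C for 2 genes without a name, by -4.27 on the log2 scale for ENSRNOG00000058083.1 (adjusted p = 0.0105) and by -5.49 for the other (adjusted p = 0.0704), by edgeR's test of the interaction over 7 vehicle and 7 high-dose males of cohort B and 6 and 7 of cohort C.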

How the results depend on the processing

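Between 4177 (a mean count over 10 in a group) and 5292 genes were called under 25 alternatives, against 5012, of which 4130 to 4968 were shared with it and 0 had the opposite direction. Without each male in turn the number was 4722 (without the high-dose male of litter 7) to 5292 (without that of litter 10), with 3146 to 3616 higher and 1363 (without the high-dose male of litter 5) to 1676 lower. DESeq2 called 4815, its size factors in edgeR 5020, with the median of all genes at 0.06, and the 14 libraries alone 5027 without and 4606 with the replicate block, which makes brothers a pair. Leaving out the high-dose males of litters 7 and 10, chosen after seeing the data, gave 5021, and leaving out both males of litter 5, likewise chosen, 4814.

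The number of genes whose response differed from that of other cohorts was the least stable. DESeq2 called 13 against cohort A, 17 against C and 6 against D. Against A, transcript length offsets called 1 and the mean count over 10 called 3. Against C, an adjusted p under 0.05 called 1 and necropsy date as a term 1. The cause was not tested.

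Of the 90 named genes called, 76 kept the call under all 25 alternatives and 14 lost it under at least 1: Hsd17b2 under 15, ENSRNOG00000058083.1 under 8, Hells, Tert and Tnfsf13b under 4 each, Fmo2 and Onecut2 under 3, Tgfb2 under 2, and Amdhd1, Cdh17, Cyp1a2, Omd, Sgo2 and Slc45a3 under 1. No called gene changed direction. Of those not called, 3 did. Cyp1a1 (log2 -0.06) had 3.96 with the replicate block, 0.34 with necropsy date as a term, 5.05 without the vehicle male of litter 5, 5.25 without both males of litter 5, 0.09 without the high-dose male of litter 1 and 0.07 without that of litter 5, in a range over single males left out of -0.76 to 5.05. Cdkn1a (log2 -0.47) had 0.10 with the block and -0.66 to 0.24 without single males, the highest without the vehicle male of litter 9. Lpin1 (log2 -0.55) had -1.24 without the high-dose male of litter 4, where it was called, to 9.63e-05 without the vehicle male of litter 9. For Cyp1a1 these values turn on 1 vehicle male.

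The libraries held 33153448 counts or more, and 4792 called genes carry no name. With 7 males per group, an animal far from its group can decide a single gene.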
